A study of Mus musculus with 12 samples.

Results

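The levels of 10 genes for the enzymes that make eicosanoids were followed across 12 RNA-seq libraries of mouse bone marrow-derived macrophages (BMDMs). The members were taken by name and matched by Ensembl identifier, and they are 10 of 35275 gene identifiers in the count tables. Wildtype bone marrow cells were induced for 6 days with the cytokines IL4, IL10 and MCSF, which every group received. DMSO, the solvent, was added to the 4 control cultures, olaparib, an inhibitor of poly(ADP-ribose) polymerases, to 4 cultures, and MNA (methyl-nicotinamide, a product of nicotinamide metabolism) to 4 cultures. The labels give neither doses nor the strain, age or sex of the mice, and the cells are an in vitro culture model with 4 donor mice by the study's legend. The design asks how expression in olaparib-treated and in MNA-treated macrophages differs from control.

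Eicosanoids are lipid mediators made from arachidonic acid, which phospholipases release from membranes. Lipoxygenases turn it into leukotrienes and hydroxy acids, and cyclooxygenases turn it into prostaglandin H2, the common precursor of the prostaglandins and thromboxane. Macrophages are a main source of these mediators, and the mix they release depends on which terminal synthases they hold.

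Library totals ran from 21146291 to 31446849 counts, and 12849 genes were high enough to test. MNA replicate 2 stood apart from its group. Its root mean square distance over the tested genes was 0.892 on the log2 CPM scale from the mean of the other MNA libraries and 0.288 from the DMSO mean, where the other MNA libraries lay 0.905 to 0.937 from the DMSO mean. It is shown apart, and the edgeR tests of the members with MNA are given with and without it. Levels are counts scaled to library size with edgeR's TMM factors (CPM), and means carry SDs over n = 4 libraries. A gene was called at an adjusted p under 0.05 in edgeR's quasi-likelihood test over all tested genes, and "rose" and "fell" refer to such calls.

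Of the 10 members, 8 were tested and Alox15 and Ltc4s were too low. Alox5 passed the filter on low counts through its treated libraries, since only 1 of 4 DMSO libraries reached the level the filter needs, and Ptgs2 reached it in 2 of 4. A difference in these genes is therefore partly set by the filter, and no summary over the tested members is drawn as support.

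Among macrophage markers, the summed level of 9 genes was 4510 to 5777 CPM in DMSO, 8961 to 10750 CPM with olaparib and 4145 to 7666 CPM with MNA. Adgre1, Csf1r, Cd68, Itgam and Lyz2 each stood at 164 CPM or more in every library, whereas Fcgr1 stood at 0.116 to 2.30 CPM. With olaparib 4 of the 9 rose and 1 fell, where 14.3% and 12.8% of all tested genes did. With MNA 2 rose and 1 fell, against 16.3% and 12.3%. Lyz2 ran from 1624 to 2531 CPM in DMSO and from 5112 to 6556 CPM with olaparib. Cd68 went the other way, from 1094 to 1308 CPM and from 812 to 868 CPM. Mrc1 stood at 547.5 to 828.4 CPM in DMSO and 128.4 to 185.1 CPM in MNA replicates 1, 3 and 4. Csf1r and Cd14 were higher in those MNA libraries. Csf1r stood at 435 to 605 CPM in DMSO and 1647 to 1837 CPM there, and Cd14 at 36.4 to 49.7 CPM and 87.45 to 96.6 CPM. In bulk RNA, fewer cells of a type and less RNA per cell cannot be told apart.

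Promoter sequences are shown for Alox5, Tbxas1, Ptgs2 and Ptges, 4 members with a RefSeq entry on whose changes the results turn. They are the 250 bases upstream of the RefSeq gene start in GRCm38.p6, written 5′ to 3′ on the gene's strand, and 8 of the 10 members had an entry (not Alox15 and Alox5ap). Capitals mark matches to the 6 motifs searched on both strands, overlaps included.
Alox5 promoter, chr6:116461179-116461428, minus strand: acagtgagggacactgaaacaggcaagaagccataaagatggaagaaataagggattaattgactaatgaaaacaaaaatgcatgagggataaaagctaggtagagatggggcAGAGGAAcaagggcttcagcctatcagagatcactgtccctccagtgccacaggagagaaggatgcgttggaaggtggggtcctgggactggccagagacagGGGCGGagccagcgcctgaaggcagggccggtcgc
Tbxas1 promoter, chr6:38918736-38918985, plus strand: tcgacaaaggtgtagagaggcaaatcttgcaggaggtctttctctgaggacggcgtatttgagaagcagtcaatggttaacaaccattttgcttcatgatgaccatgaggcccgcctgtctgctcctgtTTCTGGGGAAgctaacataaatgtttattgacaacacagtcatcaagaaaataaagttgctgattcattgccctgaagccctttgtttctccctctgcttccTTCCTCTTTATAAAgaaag
Ptgs2 promoter, chr1:150099781-150100030, plus strand: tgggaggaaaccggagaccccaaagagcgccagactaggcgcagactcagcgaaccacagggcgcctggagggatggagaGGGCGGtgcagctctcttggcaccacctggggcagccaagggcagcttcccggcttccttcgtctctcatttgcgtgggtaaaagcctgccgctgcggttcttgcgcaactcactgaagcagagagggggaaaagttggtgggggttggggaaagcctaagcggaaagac
Ptges promoter, chr2:30903298-30903547, minus strand: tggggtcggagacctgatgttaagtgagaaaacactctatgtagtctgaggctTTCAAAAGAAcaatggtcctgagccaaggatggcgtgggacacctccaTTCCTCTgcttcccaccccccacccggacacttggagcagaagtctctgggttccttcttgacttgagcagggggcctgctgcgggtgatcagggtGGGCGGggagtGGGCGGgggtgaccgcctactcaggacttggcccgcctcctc
A STAT6 motif, TTC and GAA with 4 bases between them, was sought because IL4 acts through that factor, and it was in the windows of Tbxas1 and Ptges among the 8 members with an entry, against 5.9% of all 32851 promoters. The interferon motif, GAAA and GAAA with 2 bases between them (3.0% of all promoters), and the NRF2 motif TGACNNNGC (10.2%) were in 0 of the 8. The other 3 motifs were chosen after the sequences were seen. The PU.1 motif AGAGGAA was in Alox5, Ptges, Ptgs1 and Tbxas1 (8.6% of all promoters) and the GC box GGGCGG in Alox5, Ptgs2 and Ptges (32.7%). The TATA motif TATAAA was in Tbxas1 alone, as overlapping matches on both strands, the minus-strand match sharing a base with the PU.1 motif beside it (12.4%). A match is a description of the letters and not a bound site.

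Levels per kb of exon placed the members in tiers. In DMSO, Alox5ap was highest at 56.4 ± 8.86 CPM per kb, followed by Ptgs1 at 20.5 ± 0.669, Lta4h at 20.1 ± 3.08 and Tbxas1 at 14.8 ± 2.499. Ptgs1 and Lta4h overlapped, as did Lta4h and Tbxas1. Ptges at 1.34 ± 0.180 and Hpgds at 1.14 ± 0.355 CPM per kb overlapped each other and lay below these. Ptgs2 (0.0800 ± 0.0250), Ltc4s (0.0764 ± 0.0586), Alox5 (0.0672 ± 0.0697) and Alox15 (0.0379 ± 0.0289) formed the lowest tier, with overlapping libraries.

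With olaparib the order per kb was Alox5ap at 149 ± 5.29, Tbxas1 at 32.9 ± 1.62, Ptgs1 at 22.2 ± 1.48 and Lta4h at 17.3 ± 1.47 CPM per kb, and no neighbours among these overlapped. Alox5 reached 1.07 ± 0.427 CPM per kb and overlapped both Ptges (1.65 ± 0.371) and Hpgds (0.702 ± 0.149). With MNA, the order of the 3 libraries other than replicate 2 was Alox5ap, Tbxas1, Ptgs1 and Lta4h, again with no overlap between neighbours. In MNA replicate 2, Tbxas1 at 13.2 CPM per kb was below Ptgs1 at 20.2 and Lta4h at 18.6, the order of the DMSO means. Lower down with MNA came Hpgds at 1.17 ± 0.284, Ptgs2 at 0.577 ± 0.303, Ptges at 0.535 ± 0.404 and Alox5 at 0.470 ± 0.272 CPM per kb, where Hpgds lay above every Ptgs2 value and each later neighbour overlapped the next.

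**Figure D1:**
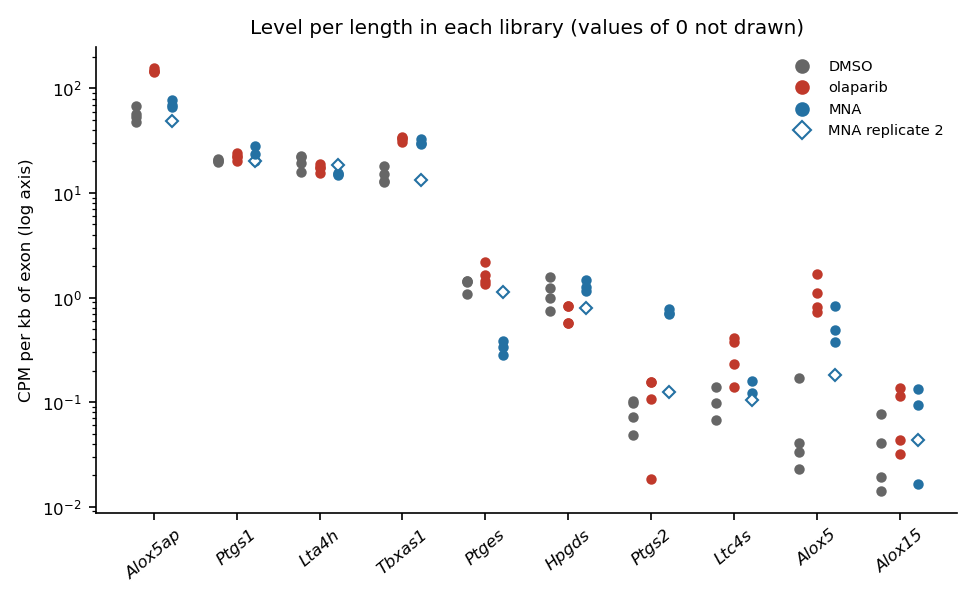
Level per length of the 10 members, on a log axis in CPM per kb of exon, with 1 point per library (n = 4 per group) and MNA replicate 2 as an open diamond. Alox5ap, Ptgs1, Lta4h and Tbxas1 lie above 12 CPM per kb in every library, and Ptgs2, Ltc4s and Alox15 lie below 1 CPM per kb in every library.

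The leukotriene enzymes begin with Alox5, arachidonate 5-lipoxygenase, which makes leukotriene A4 (ENSMUSG00000025701, GRCm38 chromosome 6, 116410077 to 116461178, minus strand). It held 15, 4, 5 and 3 counts in DMSO replicates 1 to 4, against 194, 84, 71 and 129 with olaparib and 83, 21, 40 and 50 with MNA, where 21 is replicate 2. As levels these were 0.703, 0.138, 0.168 and 0.0951 CPM in DMSO, 6.85, 3.30, 2.985 and 4.49 CPM with olaparib, and 3.41, 0.752, 1.54 and 2.01 CPM with MNA. Every treated library lay above every DMSO library, MNA replicate 2 by the least.

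Alox5 rose with olaparib by 4.10 on the log2 scale (SE 0.61, adjusted p = 9.77e-04, edgeR), from 0.276 ± 0.286 to 4.41 ± 1.75 CPM. With MNA it rose by 2.90 (SE 0.61, adjusted p = 0.0144, edgeR), and by 3.20 without MNA replicate 2 (adjusted p = 1.82e-04, edgeR). DMSO replicate 1 lay far above the other controls, and without it the changes were 5.00 with olaparib and 3.81 with MNA. That library also had the highest DMSO level of the 9 neutrophil markers, 10.6 CPM in sum against 1.34 to 1.81 CPM in the other DMSO libraries. The neutrophil list stood at 2.93 to 3.89 CPM with olaparib and at 1.33 to 68.2 CPM with MNA, with 68.2 in MNA replicate 4, whose Alox5 level lay between those of replicates 1 and 3. Ly6g, a defining neutrophil marker, was at 0 in every library except MNA replicate 4, and the part of these cells in the Alox5 result was not tested.

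Alox5ap encodes the protein that presents arachidonic acid to this lipoxygenase (ENSMUSG00000060063, chromosome 5, 149264767 to 149288153, plus strand). Its level was 96.9, 75.3, 67.1 and 81.3 CPM in DMSO and 209.5, 203.7, 210.2 and 221.7 CPM with olaparib. The groups were far apart, and olaparib raised Alox5ap by 1.40 (SE 0.14, adjusted p = 6.03e-05, edgeR), or 2.64-fold. With MNA the level was 110.9, 69.2, 94.4 and 98.2 CPM, and the replicate 2 value of 69.2 lay within the DMSO range, as did that of replicate 3. The change with MNA was 0.22 (adjusted p = 0.223, edgeR), and 0.34 (adjusted p = 0.0115, edgeR) without MNA replicate 2, which makes it a call while the groups still overlap. Of the 31-base words in its transcripts, 9.45% also occur in Gm19719, which was not analysed here, so a share of its reads may be ambiguous.

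Lta4h, whose product turns leukotriene A4 into the neutrophil attractant leukotriene B4 (ENSMUSG00000015889, chromosome 10, 93453411 to 93484875, plus strand), moved the other way or not past the threshold. Its level was 97.4, 119, 135 and 138 CPM in DMSO, 94.3, 108, 116 and 105 CPM with olaparib, and 94.3, 113.5, 89.6 and 92.3 CPM with MNA. The groups overlapped, since DMSO replicate 1 lay low and MNA replicate 2 lay high. With olaparib the difference was −0.21 (95% interval −0.46 to 0.04, adjusted p = 0.181, edgeR). It became a call without DMSO replicate 1 (−0.31, adjusted p = 0.0445, edgeR) and with the replicate number as a block without MNA replicate 2 (−0.21, adjusted p = 0.0452, edgeR, against 0.0881 without the block). With MNA, Lta4h fell by 0.33 on the log2 scale (SE 0.11, adjusted p = 0.0470, edgeR), and by 0.41 without MNA replicate 2 (adjusted p = 0.00428, edgeR), where the groups no longer overlapped. The MNA call was lost without 10 of the 12 libraries, all but DMSO replicate 1 and MNA replicate 2, with an adjusted p of up to 0.125 (edgeR).

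Ltc4s, the synthase of the cysteinyl leukotriene C4 (ENSMUSG00000020377, chromosome 11, 50236461 to 50238616, minus strand), was near the limit of detection. It held 3, 2, 3 and 0 counts in DMSO, 4, 6, 10 and 11 with olaparib and 3, 3, 0 and 4 with MNA. The olaparib libraries lay above the DMSO libraries, by a margin of 1 count, and their summed counts of 31 against 8 gave a depth-adjusted ratio of 4.08 (95% exact interval 1.83 to 10.3, counting error only). With no filter on low counts the olaparib difference had an adjusted p of 0.131 (edgeR) and was not called. Ltc4s was called up with olaparib when MNA replicates 2 and 4 were both left out, an alternative chosen after seeing the data in which it passed the filter. The ratio for MNA was 1.36 (0.482 to 3.95). Of the 31-base words of Ltc4s, 19.5% are shared with the antisense gene Gm26542, and whether counting used strand is not given in the sources used here.

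Alox15, the IL4-inducible 12/15-lipoxygenase of macrophages (ENSMUSG00000018924, chromosome 11, 70344152 to 70352031, minus strand), was scarcely detected in these IL4-treated cells. It held 1, 1, 3 and 6 counts in DMSO, 3, 2, 8 and 8 with olaparib, and 8, 3, 6 and 1 with MNA. All 3 groups overlapped, and the summed ratios to DMSO of 2.01 (0.926 to 4.61) with olaparib and 1.78 (0.794 to 4.16) with MNA had counting intervals that included 1. A difference was not detectable at this depth. Eosinophils, mast cells and basophils can express Ltc4s or Alox15, and the part of such cells in these low counts was not tested. Of 6 eosinophil markers, Epx and Prg2 were at 0 in every olaparib library, while Siglecf took the list's sum to 31.4 to 59.0 CPM with olaparib against 3.92 to 7.01 CPM in DMSO and 5.01 to 10.1 CPM with MNA. The 2 tested markers of this list both rose with olaparib, where 14.3% of all tested genes did. Ear6 stood at 0.0634 to 0.235 CPM in DMSO and 0.388 to 0.905 CPM with olaparib, and Ccr3 at 0 to 0.0937 CPM and 0.157 to 0.565 CPM. The 8 mast cell and basophil markers summed to 5.43 to 7.90 CPM in DMSO, 6.09 to 10.1 CPM with olaparib and 5.70 to 8.39 CPM with MNA, mostly from Gata2, and Mcpt8 was at 0 in every DMSO and olaparib library.

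**Figure D2:**
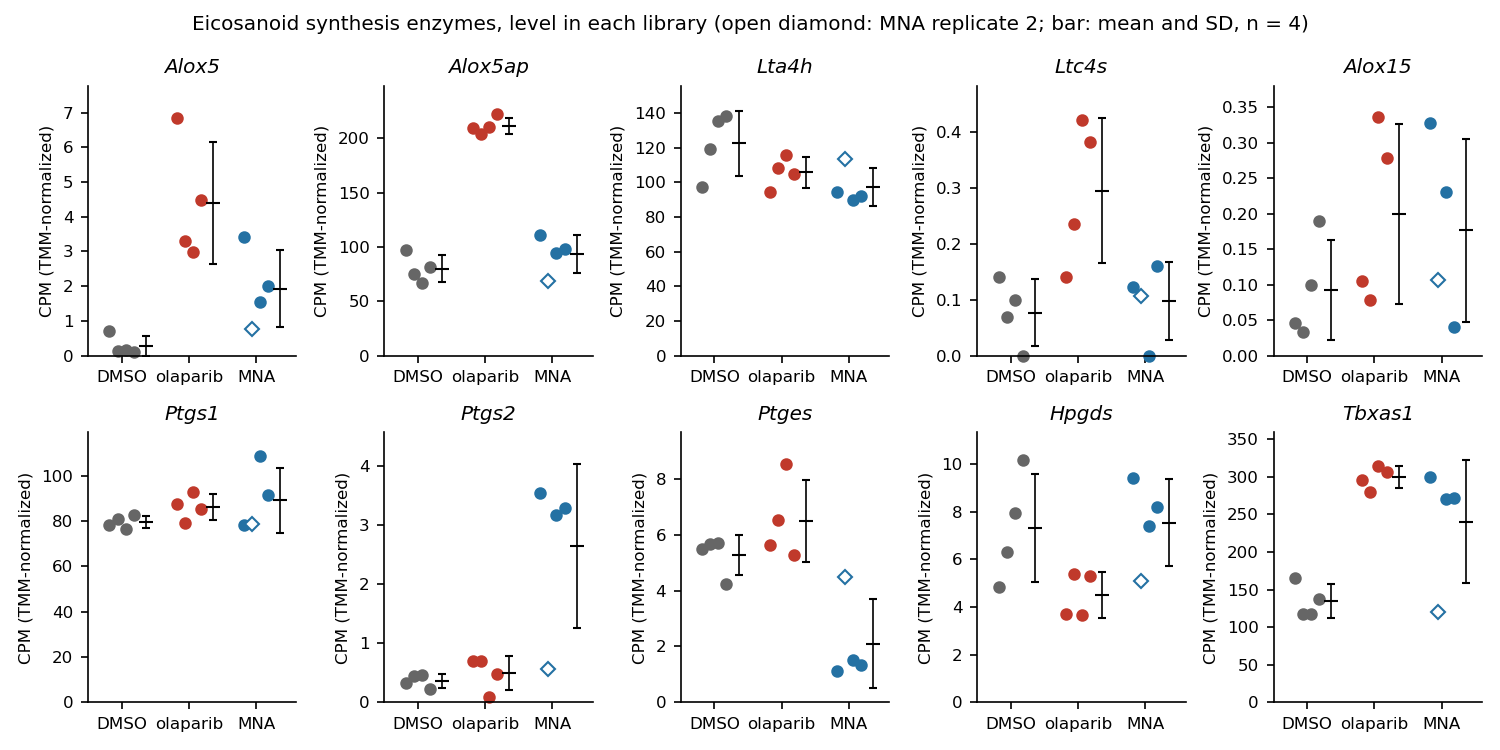
Level of each member in CPM, with 1 point per library, MNA replicate 2 as an open diamond, and a black bar for the mean and SD of 4 libraries. Alox5, Alox5ap and Tbxas1 are higher in all 4 olaparib libraries than in any DMSO library, whereas Ptgs2 is high and Ptges low in MNA replicates 1, 3 and 4 only, with replicate 2 beside the DMSO libraries.

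The cyclooxygenases make the common prostaglandin precursor. Ptgs1, the constitutive form (ENSMUSG00000047250, chromosome 2, 36230426 to 36252272, plus strand), passed the threshold in no comparison of all 12 libraries. Its level ran from 76.6 to 82.4 CPM in DMSO, from 79.1 to 92.9 CPM with olaparib and from 78.1 to 108.5 CPM with MNA, where replicate 2 had 78.5 CPM. The difference was 0.12 with olaparib (95% interval −0.09 to 0.33, adjusted p = 0.388, edgeR) and 0.17 with MNA (−0.05 to 0.38, adjusted p = 0.202, edgeR). Without MNA replicate 2 the latter was 0.22 (adjusted p = 0.0511, edgeR).

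Ptgs2 is the inducible form (ENSMUSG00000032487, chromosome 1, 150100031 to 150108227, plus strand). It held 7, 13, 14 and 7 counts in DMSO, 20, 18, 2 and 14 with olaparib, and 86, 16, 82 and 82 with MNA, where 16 is replicate 2. The corresponding levels were 0.328, 0.447, 0.469 and 0.222 CPM in DMSO, 0.706, 0.707, 0.0841 and 0.487 CPM with olaparib, and 3.54, 0.573, 3.16 and 3.29 CPM with MNA. MNA replicates 1, 3 and 4 stood far above all other libraries, and replicate 2 just above the highest DMSO library. Ptgs2 rose with MNA by 2.83 (SE 0.59, adjusted p = 0.0142, edgeR), and by 3.16 (adjusted p = 1.77e-05, edgeR) without replicate 2. With olaparib the groups overlapped and the difference was 0.45 (95% interval −0.94 to 1.83, adjusted p = 0.626, edgeR), which at these counts leaves room for a change in either direction.

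Of the terminal synthases, Tbxas1 makes thromboxane A2 (ENSMUSG00000029925, chromosome 6, 38875404 to 39084585, plus strand) and its RefSeq start lies within that span. Its level was 165.5, 116.8, 118.1 and 137.4 CPM in DMSO, 295.5, 280.2, 314.3 and 306.0 CPM with olaparib, and 299.2, 120.1, 270.1 and 271.8 CPM with MNA. All olaparib libraries and MNA replicates 1, 3 and 4 were above every DMSO library, and MNA replicate 2 lay inside the DMSO range. Tbxas1 rose with olaparib by 1.15 (SE 0.22, adjusted p = 0.00407, edgeR), or 2.22-fold. It rose with MNA by 0.84 (SE 0.22, adjusted p = 0.0227, edgeR), and by 1.06 (adjusted p = 1.28e-06, edgeR) without replicate 2. Leaving out DMSO replicate 2, 3 or 4, or 1 of the MNA replicates 1, 3 and 4, ended the MNA call, the adjusted p then being 0.0501 to 0.0698 (edgeR).

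Tbxas1 is also a platelet gene. The 7 megakaryocyte and platelet markers summed to 13.1 to 21.9 CPM in DMSO, 49.1 to 78.3 CPM with olaparib and 12.3 to 34.3 CPM with MNA. Of the 5 that were tested, 4 rose with olaparib and 1 with MNA, where 14.3% and 16.3% of all tested genes did. Pf4 and Treml1 carried most of the sum. Of the platelet receptors in the list, Gp1ba ran from 0.698 to 1.55 CPM in DMSO and from 1.695 to 2.23 CPM with olaparib, and Itga2b from 0.275 to 0.804 CPM and from 0.628 to 1.39 CPM. Gp9 and Gp6 were at 0 in every olaparib library and also in DMSO replicates 2, 3 and 4. Ppbp, the other gene of the list, ran from 0.0335 to 0.141 CPM in DMSO and from 0.393 to 1.29 CPM with olaparib. The part of this list in the Tbxas1 result was not tested. The Tbxas1 span overlaps Hipk2 on the opposite strand. Hipk2 fell by 0.69 with olaparib (adjusted p = 0.0212, edgeR) and by 0.72 with MNA (adjusted p = 0.0228, edgeR), or 0.95 without MNA replicate 2. The part of Hipk2 reads in the Tbxas1 counts was not tested.

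Ptges is the inducible prostaglandin E synthase (ENSMUSG00000050737, chromosome 2, 30889471 to 30929863, minus strand). Its RefSeq start and the promoter window shown lie within that span. Its level was 5.48, 5.68, 5.69 and 4.22 CPM in DMSO, 5.61, 6.52, 8.54 and 5.29 CPM with olaparib, and 1.11, 4.48, 1.50 and 1.33 CPM with MNA. The low values were MNA replicates 1, 3 and 4, and replicate 2 at 4.48 CPM lay within the DMSO range. Ptges fell with MNA by 1.31 on the log2 scale (SE 0.37, adjusted p = 0.0265, edgeR), and 3.99-fold (adjusted p = 3.56e-06, edgeR) without replicate 2, where the groups did not overlap. Leaving out DMSO replicate 2 or 3, or 1 of the MNA replicates 1, 3 and 4, ended this call, the adjusted p then being 0.0606 to 0.0813 (edgeR). With olaparib the groups overlapped, and the difference was 0.30 (95% interval −0.47 to 1.07, adjusted p = 0.549, edgeR). In the MNA libraries other than replicate 2, the inducible cyclooxygenase was thus higher and this synthase lower than in control.

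Hpgds, the haematopoietic prostaglandin D synthase (ENSMUSG00000029919, chromosome 6, 65117293 to 65144908, minus strand), varied widely among controls. Its level was 4.83, 6.33, 7.94 and 10.2 CPM in DMSO, 3.71, 5.38, 3.66 and 5.29 CPM with olaparib, and 9.41, 5.08, 7.41 and 8.19 CPM with MNA. The olaparib libraries sat below or in the lower part of the DMSO range. The olaparib difference was −0.70 (95% interval −1.24 to −0.16, adjusted p = 0.0538, edgeR), just short of a call. It became one without MNA replicate 2 (adjusted p = 0.0142, edgeR), without DMSO replicate 1 (adjusted p = 0.0263, edgeR) and in DESeq2 (adjusted p = 0.0252). With MNA the difference was 0.04 (95% interval −0.49 to 0.57, adjusted p = 0.921, edgeR), and 0.18 (adjusted p = 0.515, edgeR) without replicate 2.

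Counted together, 3 of the 8 tested members rose with olaparib (Alox5, Alox5ap and Tbxas1) and 0 fell in edgeR, where 27% of the 12849 tested genes were called, 14.3% as higher and 12.8% as lower. Hpgds alone was lower at an unadjusted p under 0.05, and DESeq2 called that 1 gene. Among the tested members, the same 3 were those whose olaparib and DMSO libraries did not overlap, against 41% of all tested genes. Without MNA replicate 2, Hpgds joined them as 1 member that fell, where 43.7% of genes were called, 22.5% higher and 21.2% lower. That comparison holds no MNA library, but the 3 groups share 1 estimate of the spread. Its common dispersion in edgeR was 0.0333 with MNA replicate 2 and 0.0123 without it. The part of this in the added calls was not tested. With MNA, 3 members rose (Alox5, Ptgs2 and Tbxas1) and 2 fell (Ptges and Lta4h), where 28.6% of all tested genes were called, 16.3% higher and 12.3% lower. Groups did not overlap in Alox5 and Ptgs2, against 12.4% of all tested genes. Without MNA replicate 2, 4 members rose and 2 fell with MNA, where 54.1% of 13023 tested genes were called. Their groups did not overlap in 5 members, against 54.2% of all tested genes. These counts include Alox5 and Ptgs2, whose differences are partly set by the filter on low counts. With 8 genes tested, the counts are given as a description and nothing particular to the enzymes is read from them.

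The MNA calls were not kept when the olaparib libraries were left out of the fit, with MNA replicate 2 still in it. The part of that library and of the spread shared by the 3 groups in this loss was not tested. When only the 8 MNA and DMSO libraries were fitted, 0 members were called in edgeR, with adjusted p of 0.0640 for Alox5 and Ptgs2, 0.0716 for Tbxas1, 0.0753 for Ptges and 0.0964 for Lta4h, and these 5 had an unadjusted p under 0.05. The 3 olaparib calls were kept in all 21 alternatives.

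**Figure D3:**
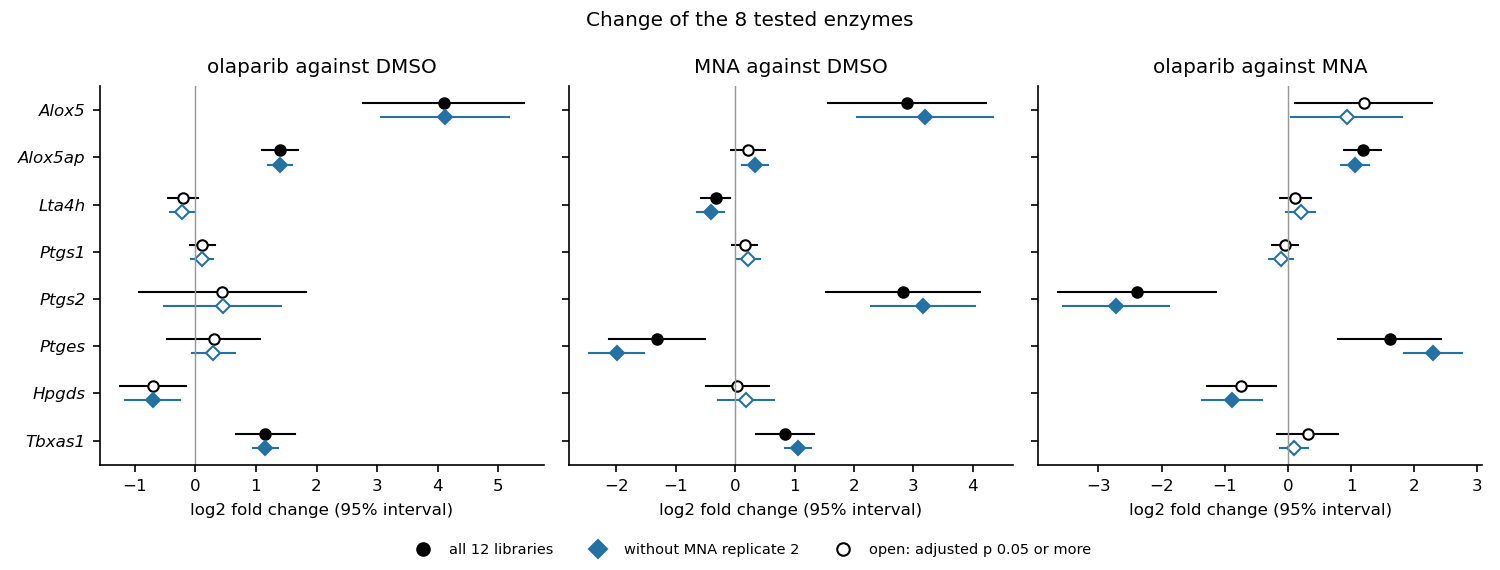
Difference of the 8 tested members on the log2 fold change scale in the 3 comparisons, with bars for the 95% interval, black circles for the fit of all 12 libraries and blue diamonds for the fit without MNA replicate 2 (filled: adjusted p under 0.05). Alox5ap and Ptges are higher and Ptgs2 lower with olaparib than with MNA, and Tbxas1 does not differ past the threshold between the treatments.

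Olaparib and MNA share their DMSO controls, so the treatments were also compared directly. Alox5ap was higher with olaparib than with MNA by 1.18 (adjusted p = 1.58e-04, edgeR) and Ptges by 1.61 (adjusted p = 0.0103, edgeR), and in neither gene did the groups overlap. For Ptgs2 the difference was −2.38, lower with olaparib (adjusted p = 0.0126, edgeR), with an overlap at MNA replicate 2. These are 2 members called higher and 1 called lower, where 21.8% of all tested genes were called and 21.2% did not overlap. The values were 1.06, 2.29 and −2.72 without MNA replicate 2 (adjusted p = 2.63e-06, 1.98e-06 and 8.82e-05, edgeR), where 42.3% of genes were called. In that fit 5 members did not overlap, against 46.2% of all genes.

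For Tbxas1 the direct difference was 0.32 (95% interval −0.17 to 0.80, adjusted p = 0.339, edgeR), and 0.09 (−0.13 to 0.31) without MNA replicate 2. The Alox5 difference was 1.20 (95% interval 0.12 to 2.28, adjusted p = 0.105, edgeR), and 0.93 (adjusted p = 0.0825, edgeR) without MNA replicate 2. It was not called in these fits, but was with the replicate number as a block. Hpgds was at −0.74 (adjusted p = 0.0522, edgeR), and became a call without MNA replicate 2 (−0.88, adjusted p = 0.00584), DMSO replicate 1 (adjusted p = 0.0398) or DMSO replicate 4 (adjusted p = 0.0426, edgeR). A p that misses the threshold does not show that the treatments act alike on these genes.

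The genes whose pattern was most like each oxygenase were found by Pearson's r of log2 CPM over the 12 libraries, among 9740 tested genes whose counts averaged 100 or more. Alox5 was most like Pla2g4a (r = 0.955), Pgpep1 (0.954) and Kcnk13 (0.954). Pla2g4a is itself a gene of this pathway, the cytosolic phospholipase A2. Ptgs2 was most like Zfp512 (r = 0.969), Plekhg2 (0.955) and N4bp1 (0.954), and Ptgs1 was most like Sufu (r = 0.910), Trappc6a (0.907) and Smim26 (0.899). These points share libraries and the group differences, and the values are descriptions.

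Beyond the 10 members, 68 other genes of the pathway were listed by role and 42 were tested. With olaparib 16 rose and 2 fell, where 14.3% of all tested genes were called higher and 12.8% lower, and the median log2 difference of the 42 was 0.26 against 0.00 for all tested genes. With MNA 12 rose and 9 fell, where 16.3% of all tested genes were called higher and 12.3% lower, with a median of −0.03 against 0.00. For olaparib against MNA 15 were called higher and 1 lower, where 10.9% and 10.9% of all tested genes were, with a median of 0.32 against −0.01. Without MNA replicate 2 that comparison had 19 higher and 8 lower, where 21.5% and 20.7% of all tested genes were called. The 2 falls with olaparib became 1 without DMSO replicate 2, 3 or 4 or olaparib replicate 2, 3 or 4. The MNA counts were 15 and 13 without MNA replicate 2, where 27.2% and 26.9% of all tested genes were called. The same backgrounds apply to the counts by role, which are descriptions. Leaving out any 1 of DMSO replicates 2, 3 and 4 and MNA replicates 1, 3 and 4 lowered the MNA totals over all roles. Between 3 and 7 pathway genes then rose and between 0 and 2 fell (edgeR). Where none was called lower, 10 or 11 were lower at an unadjusted p under 0.05.

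The list for substrate release held 16 genes, of which 11 were tested. With olaparib 4 rose and 1 fell, and with MNA 4 rose and 4 fell. The counts of genes that rose include Pla2g7, whose product acts on platelet-activating factor. Pla2g4a, which frees arachidonic acid from phospholipids, ran from 23.9 to 27.5 CPM in DMSO, from 34.7 to 40.1 CPM with olaparib and from 34.0 to 35.5 CPM in MNA replicates 1, 3 and 4, with 27.0 CPM in replicate 2. It rose by 0.56 with olaparib (adjusted p = 0.00172, edgeR) and by 0.37 with MNA (adjusted p = 0.0197, edgeR; 0.45 without replicate 2). Pla2g7, the platelet-activating factor acetylhydrolase, rose by 1.59 with olaparib (adjusted p = 0.00301) and by 1.58 with MNA (adjusted p = 0.0142, edgeR, and 1.85 without replicate 2), with MNA replicate 2 at 153.8 CPM beside a highest DMSO value of 153.2 CPM.

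The secreted phospholipase Pla2g2d moved in opposite directions. It rose with olaparib by 1.48 (adjusted p = 0.0116, edgeR) and fell with MNA by 1.50 on the log2 scale (adjusted p = 0.0292, edgeR), and the direct difference was 2.98 (adjusted p = 5.29e-04, edgeR). The latter values were −1.58 and 3.06 without MNA replicate 2. Its levels were low, 0.168 to 0.653 CPM in DMSO, 0.943 to 1.56 CPM with olaparib and 0.116 to 0.206 CPM with MNA, replicate 2 included. Every MNA library and DMSO replicate 3 stood under the filter's level of about 0.374 CPM. Pla2g2d was thus tested through its olaparib libraries, and these differences are partly set by the filter. Pla2g2e fell with MNA by 2.41 (adjusted p = 0.0414, edgeR), and by 5.28 (adjusted p = 6.66e-06, edgeR) without replicate 2, with 0 to 0.0803 CPM in replicates 1, 3 and 4, 1.11 CPM in replicate 2 and 0.750 to 2.27 CPM in DMSO. MNA replicates 1, 3 and 4 were under the filter's level here, so Pla2g2e was tested through its other libraries. Daglb and Abhd6, which act on the diacylglycerol and monoacylglycerol route to arachidonic acid, rose with MNA by 0.88 (adjusted p = 0.0167) and 1.24 (adjusted p = 0.0185, edgeR), and by 1.09 and 1.41 without replicate 2. Daglb in MNA replicate 2, at 239.7 CPM, was inside the DMSO range of 237.1 to 276.6 CPM, and Abhd6 there, at 0.680 CPM, was above the highest DMSO value of 0.539 CPM.

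Other synthesis genes numbered 19, of which 11 were tested, 2 rose and 0 fell with olaparib in edgeR, and 1 rose and 2 fell with MNA. Ptges3 alone of this list was lower with olaparib at an unadjusted p under 0.05, and DESeq2 counted 3 pathway genes as lower there against 2 in edgeR. Mgst2, a microsomal glutathione transferase able to make leukotriene C4, rose with olaparib by 2.94 (adjusted p = 0.00109, edgeR), with 0.168 to 0.603 CPM in DMSO and 2.05 to 4.14 CPM with olaparib. Only 2 of its 4 DMSO libraries reached the level the filter needs, so this difference too is partly set by the filter. Mgst3 rose by 0.69 (adjusted p = 0.00198) with olaparib and 0.36 (adjusted p = 0.0394, edgeR) with MNA, or 0.46 without replicate 2, which at 11.4 CPM lay inside the DMSO range. Gpx4, the phospholipid peroxidase that lowers lipid hydroperoxides, fell with MNA by 0.44 (adjusted p = 0.0255, edgeR), and by 0.60 without replicate 2, with 215 to 230.3 CPM in replicates 1, 3 and 4 against 329 CPM in replicate 2 and 325 to 343 CPM in DMSO.

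Genes for breakdown and transport numbered 15, of which 10 were tested, 6 rose and 0 fell with olaparib, and 5 rose and 0 fell with MNA (edgeR). At an unadjusted p under 0.05, 0 were lower with olaparib in edgeR or DESeq2, and Ptgr2 was lower with MNA in both. Ptgr1, which inactivates leukotriene B4 and prostaglandins, rose by 1.06 (adjusted p = 4.61e-05, edgeR) with olaparib and 0.32 (adjusted p = 0.0342, edgeR) with MNA, or 0.41 without replicate 2, which at 73.4 CPM lay inside the DMSO range. Ephx2, the soluble epoxide hydrolase, rose with olaparib by 2.79 (adjusted p = 9.61e-05, edgeR), with 0.502 to 0.984 CPM in DMSO and 3.88 to 5.88 CPM with olaparib. Abcc1, an exporter of leukotriene C4, rose by 0.86 (adjusted p = 0.0256) with olaparib and 1.26 (adjusted p = 0.0142, edgeR) with MNA, or 1.50 without replicate 2, which had 83.6 CPM beside a highest DMSO value of 82.5 CPM. The prostaglandin transporter Slco2a1 rose with olaparib by 3.35 (adjusted p = 0.00745, edgeR) from at most 0.412 CPM in DMSO to 0.989 to 3.17 CPM. It reached the filter's level in only 1 of 4 DMSO libraries, so it was tested through its treated libraries. Cyp4f16 rose by 0.40 with olaparib (adjusted p = 0.0430, edgeR), a call that the replicate block ended (adjusted p = 0.0537, edgeR).

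Receptors numbered 18, of which 10 were tested, 4 rose and 1 fell with olaparib, and 2 rose and 3 fell with MNA. The leukotriene receptors Ltb4r1 and Cysltr1 rose with olaparib by 1.27 (adjusted p = 0.00544) and 0.65 (adjusted p = 0.0249, edgeR). The prostacyclin receptor Ptgir rose by 0.93 with olaparib (adjusted p = 0.00196, edgeR) and fell by 0.51 with MNA (adjusted p = 0.0332, edgeR), and the direct difference was 1.44 (adjusted p = 1.19e-04, edgeR). Without MNA replicate 2, at 65.8 CPM inside the DMSO range, the latter values were −0.63 and 1.56. Of the prostaglandin E2 receptors, Ptger3 fell by 1.83 with olaparib (adjusted p = 0.0270, edgeR) and by 1.77 with MNA (adjusted p = 0.0325, edgeR), and Ptger2 fell by 1.19 with MNA (adjusted p = 0.0273, edgeR). Without MNA replicate 2 these MNA differences were −2.82 for Ptger3 (adjusted p = 9.01e-05) and −1.83 for Ptger2 (adjusted p = 1.29e-07, edgeR), and Ptger3 in that library, at 1.11 CPM, was inside the DMSO range. In MNA replicates 1, 3 and 4 Ptger3 stood at 0.154 to 0.329 CPM, under the filter's level, so its MNA difference is partly set by the filter. Ptger2 had 12.1 to 14.5 CPM in MNA replicates 1, 3 and 4, 43.9 CPM in replicate 2 and 40.5 to 61.5 CPM in DMSO. Cmklr1, a receptor for chemerin and for a lipid mediator of the resolvin family, rose with olaparib by 2.21 (adjusted p = 3.72e-04, edgeR). The thromboxane receptor Tbxa2r was too low to test.

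**Figure D4:**
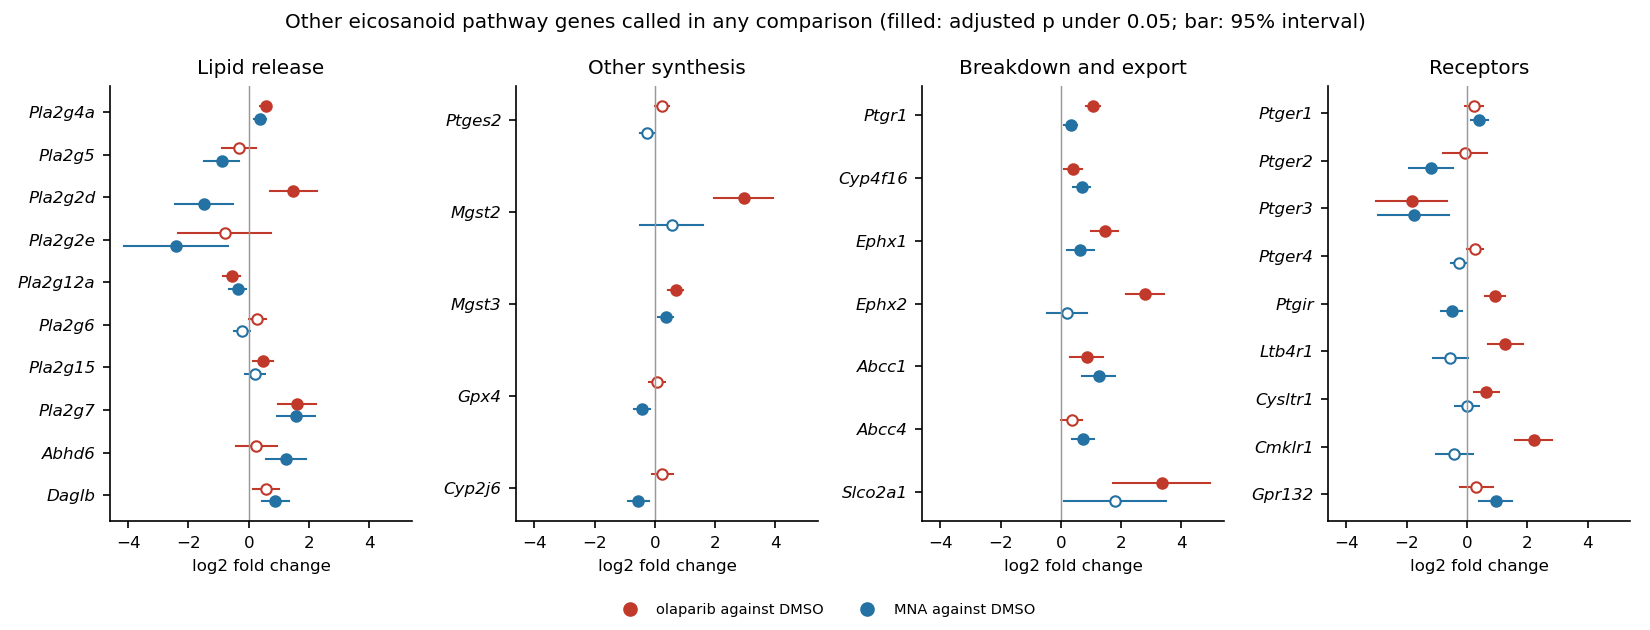
Other pathway genes called in any of the 3 comparisons, by role, as the log2 fold change against DMSO with its 95% interval for olaparib (red) and MNA (blue), filled where the adjusted p is under 0.05. Pla2g7, Ptgr1, Ephx1 and Abcc1 lie above 0 with filled points in both treatments, Ptger3 and Pla2g12a below 0 in both, and Pla2g2d and Ptgir on opposite sides.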

How the data were processed

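Poly(A) RNA of 12 BMDM cultures was sequenced as stranded libraries, and the authors deposited 1 table of raw read counts per gene and library, made per the submitters' processing notes with STAR 2.5.2b on GRCm38.p5 (mm10), R 3.6.0 and DESeq2. Which strand the counts use is not given in the sources used here. The members and gene lists were chosen with earlier results of these data known. Identifiers were matched through the GENCODE annotation, for 34490 of 35275. Genes were kept by edgeR's filterByExpr (count minimum 10, total 15, here about 0.374 CPM), scaled by TMM and tested with edgeR 4.0.16 in R 4.3.3 (quasi-likelihood, all 3 groups in 1 fit, Benjamini-Hochberg adjustment). The fit was tested on simulated data. All members were reported, and pathway genes called in any comparison could be named, while Ptges3, Ptgr2 and Hipk2 were named after their values were seen. DESeq2 1.42.0, other scalings, no filter, the replicate block, fits of 2 groups and leaving out each library were alternatives. Olaparib and DMSO libraries of the same number deviated together (r = 0.227, 0.172, 0.225 and 0.408 for numbers 1 to 4). For different numbers r ran from −0.274 to 0.0981. The numbers, taken from the titles, were therefore read as a possible pairing of these groups. The main tests did not use it, and the replicate block kept the olaparib calls of Alox5, Alox5ap and Tbxas1. Nothing in the labels ties a library to a mouse, and the p-values measure the spread between cultures. Intervals on counts cover counting error only.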

Additional observations from a re-analysis of the deposited data

Results flagged for a closer look

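In 5 of 30 groups of 4 libraries, 1 library lay far from the other 3 by Dixon's gap ratio, which chance gives in about 1 of 20 groups. In MNA, replicate 2 was that library for Ptgs2 (low, 0.573 CPM, gap ratio 0.874), Ptges (high, 4.48 CPM, 0.883) and Tbxas1 (low, 120.1 CPM, 0.838), each time on the side of the DMSO libraries. In DMSO, replicate 1 had a high Alox5 level (0.703 CPM, gap ratio 0.881) together with the highest DMSO sums of the neutrophil markers (10.6 CPM) and the erythroid markers (3.795 CPM), whose part was not tested. DMSO replicate 4 had a low Ptges level (4.22 CPM, gap ratio 0.856).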

How the results depend on the processing

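Over 504 single-gene values of the members under the alternatives, 446 kept their direction and side of the threshold, 34 lost a call, 19 gained one and 5 changed sign, none of them called. Leaving out 1 library, the Hpgds difference with MNA ran from −0.12 (without DMSO replicate 1) to 0.23 (without DMSO replicate 4), being −0.03, −0.09 and −0.01 without DMSO replicate 2, MNA replicate 1 and MNA replicate 4, and Ptgs1 of olaparib against MNA ran from −0.11 to 0.049 (without MNA replicate 3). Leaving out 1 library gave 3 to 3 members up and 0 to 2 down with olaparib, 2 to 4 up and 0 to 2 down with MNA, and 2 to 2 up and 1 to 2 down for olaparib against MNA. For pathway genes the ranges were 12 to 21 up and 1 to 3 down, 3 to 15 up and 0 to 13 down, and 13 to 19 up and 0 to 8 down. DESeq2 called 1 member down with olaparib, and 2 members and 2 pathway genes down for olaparib against MNA. The main fit of that last comparison had 1 member and 1 pathway gene down. With no filter, 1 member was down with MNA and 0 pathway genes were down for olaparib against MNA (4 at an unadjusted p under 0.05, edgeR). In the fits of 2 groups, 1 member was down with olaparib. There, 0 members and 0 pathway genes were up or down with MNA in edgeR, where unadjusted p under 0.05 gave 3 and 2 members and 12 and 10 pathway genes, and DESeq2 on all libraries called 3 and 2 members and 13 and 10 pathway genes. For olaparib against MNA, 0 pathway genes were down there (2 unadjusted). At an adjusted p under 0.01, 1 pathway gene was down with olaparib, and 0 members and 0 pathway genes were up or down with MNA. For olaparib against MNA it left 1 member up, 0 members down, 9 pathway genes up and 0 down. The cause was not tested, except that a stricter threshold calls fewer genes by construction.

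The replicate block gave 2 pathway genes down for olaparib against MNA and called Alox5 there (1.29, adjusted p = 0.0144, edgeR, and 1.06, adjusted p = 0.00357, without MNA replicate 2). With all 12 libraries it changed no other call of a member in the 3 comparisons. Same-number correlations for numbers 1 to 4 were 0.242, 0.114, −0.00938 and 0.277 between MNA and DMSO and 0.0696, 0.137, 0.131 and 0.392 between olaparib and MNA. Of these, 3 of 4 in each set exceeded 0.1, and since not every one did, the numbers were not taken to pair the MNA libraries. Deviations of the MNA libraries were taken from a group mean that included replicate 2. The correlations with MNA therefore cannot decide whether the numbers pair these libraries. With their own number correlated best 2 of 4 MNA libraries among DMSO and 3 of 4 olaparib libraries among MNA, a hint from the data only. The block without MNA replicate 2 gave 2 members down with olaparib (Hpgds and Lta4h), 15 pathway genes down with MNA, and 2 members and 9 pathway genes down for olaparib against MNA. Without MNA replicates 2 and 4, an alternative chosen after seeing the data, 4 members were up (Ltc4s besides Alox5, Alox5ap and Tbxas1) and 1 down with olaparib, and 2 members and 8 pathway genes were down for olaparib against MNA. Counts under 20 per library limit Alox15, Ltc4s and the control levels of Alox5 and Ptgs2.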

Other observations

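Ratios of levels per kb within each library set the arms of the pathway side by side. Ptgs2 per 100 of Ptgs1 was 0.228 to 0.519 in DMSO, 0.0768 to 0.758 with olaparib, 2.47 to 3.84 in MNA replicates 1, 3 and 4 and 0.619 in replicate 2. Ptges per 100 of Tbxas1 was 7.10 to 11.2 in DMSO, 4.0 to 6.28 with olaparib and 0.858 to 1.29 in MNA replicates 1, 3 and 4, with 8.62 in replicate 2. On this scale the olaparib libraries lay below every DMSO library, and the 3 MNA libraries lower still. Lta4h per 100 of Alox5ap was 23.4 to 46.9 in DMSO, 10.5 to 12.8 with olaparib, 19.8 to 22.1 in MNA replicates 1, 3 and 4 and 38.2 in replicate 2. Alox5 per 100 of Alox5ap was 0.0404 to 0.251 in DMSO, 0.491 to 1.13 with olaparib and 0.376 to 1.06 with MNA, so it lay above control in all treated libraries. These ratios were not tested.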
